A study of Homo sapiens with 4 samples.

Results

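The genes described here are the interleukin-6 (IL6) family genes of U2OS cells, an established human osteosarcoma line: the ligand genes IL6, IL11, LIF and CLCF1, the receptor genes IL6R, IL6ST, OSMR and LIFR, the transcription factor gene STAT3 and the feedback inhibitor gene SOCS3. They were given by name and found by symbol, 10 genes of the 58676 Ensembl identifiers in a table of read counts, and all 10 had enough counts to be tested. RNA sequencing covered 4 libraries. In 2 of them the U2OS cells had received a control sdAb (a single-domain antibody, the small variable fragment of an antibody), and in the other 2 an sdAb against MN1, a transcriptional coregulator. Both groups grew in DMEM with fetal bovine serum and antibiotics. The labels do not say at what dose, for how long or by what route the sdAb was given, or whether replicates were separate cultures, so the p-values reflect only how far these libraries vary, and that variation may be technical.

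IL6 family cytokines are secreted ligands that share one signalling chain, gp130, encoded by IL6ST. IL6 and IL11 first bind a receptor of their own, encoded by IL6R or IL11RA, and then a pair of gp130 chains, whereas LIF, CLCF1 and oncostatin M signal through gp130 joined to the LIFR or OSMR chain. JAK kinases bound to these chains phosphorylate STAT3, which enters the nucleus and switches on target genes, among them SOCS3, whose protein binds gp130 and the JAKs and ends the signal. In bone, cells of the osteoblast lineage both secrete these cytokines and respond to them. STAT3 is controlled mainly by phosphorylation, which transcript counts do not measure.

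Depth was even, at 15740268 to 16816893 counts per library. With the anti-MN1 sdAb, 45.3% of the 17524 tested genes passed the test, 23.7% higher and 21.6% lower, so a call alone sets a gene apart from few others. Of the osteoblast markers, RUNX2 averaged 34.4 ± 0.792 CPM in the controls (read counts relative to library size with TMM factors; SD, n = 2), while SP7 and IBSP had no count in any library. The 14 blood markers summed to between 2.75 and 3.71 CPM, with no count for 3 of them (CD3E, CD2 and HBB). In bulk RNA, fewer cells of a type and less RNA per cell cannot be told apart.

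The comparison asks how transcripts of the IL6 axis differ between cells given the anti-MN1 sdAb and those given the control sdAb. IL6 rose 7.18-fold, the receptor genes IL6R, OSMR and IL6ST rose 1.49-fold, 1.46-fold and 1.34-fold, and LIFR rose 1.11-fold. LIF was 1.14-fold lower. IL11, CLCF1, STAT3 and SOCS3 did not pass. In all, 5 of the 10 members were higher and 1 was lower in edgeR's quasi-likelihood test (Benjamini-Hochberg adjusted p under 0.05, over all tested genes), against 23.7% and 21.6% of all tested genes. The members' median log2 fold change was 0.19, beside -0.0038 over all tested genes.

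IL6 was the 1 member that both passed and changed at least 2-fold. Of all tested genes 8.74% did both, 1.91% upward and 6.84% downward. The libraries of the groups did not overlap for 8 of the 10 members, and 70.7% of all tested genes were separated in this way. With DESeq2, 4 members were higher and 0 lower, where 30.3% of all genes were called, 17.0% higher and 13.3% lower. With upper-quartile factors, 4 were higher and 2 lower, where 45.9% were called, 17.5% higher and 28.4% lower.

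**Figure D1:**
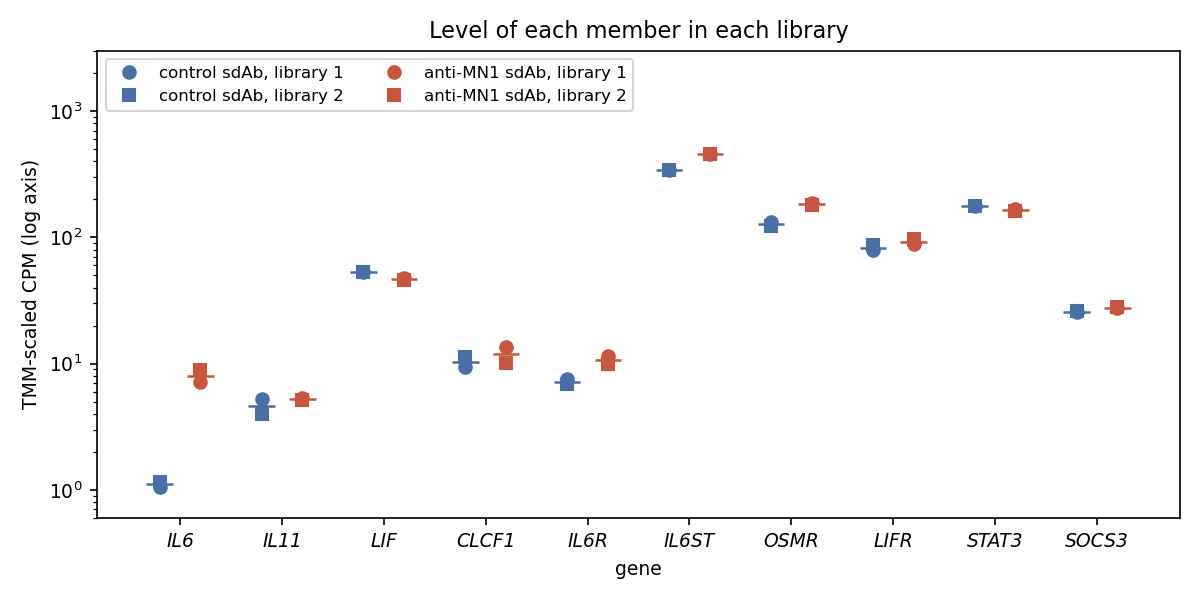
Level of each member in each of the 4 libraries, in TMM-scaled CPM on a log axis, with the control and anti-MN1 libraries as separate points and a short line for the group mean. IL6 moved from 1.11 to 8.01 CPM, while the largest change among the other members was the 1.49-fold rise of IL6R.

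Among the ligand genes, IL6 showed the large change. IL6 (ENSG00000136244, chromosome 7, 22725884 to 22732002, plus strand, GRCh38) measured 1.05 and 1.16 CPM in the control libraries against 7.10 and 8.91 CPM in those given the anti-MN1 sdAb. These levels rest on 17 and 20 reads in the controls and on 111 and 138 reads with the anti-MN1 sdAb. Both anti-MN1 libraries lay far above both controls, for a log2 fold change of 2.84 (SE 0.27, adjusted p = 5.4e-20). By the size of that change IL6 ranked 13 among the 4153 genes that rose.

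IL6-AS1 and STEAP1B overlap 20.7% of the exonic bases of IL6 on the other strand, and the strand setting of the counting is not stated. IL6-AS1 had at most 2 reads in any library. STEAP1B, a metalloreductase family gene, had 11 and 6 reads in the controls and 13 and 21 with the anti-MN1 sdAb. Their part in the IL6 count was not tested.

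The IL6 promoter is shown because its known control elements lie close to the start and because genes for the factors that bind them were measured in the same libraries. The sequence, from RefSeq (GRCh38.p14), covers 250 bases before to 50 bases after the start, with matches to the motifs searched in capitals.
IL6 (chr7:22726950-22727249, plus strand): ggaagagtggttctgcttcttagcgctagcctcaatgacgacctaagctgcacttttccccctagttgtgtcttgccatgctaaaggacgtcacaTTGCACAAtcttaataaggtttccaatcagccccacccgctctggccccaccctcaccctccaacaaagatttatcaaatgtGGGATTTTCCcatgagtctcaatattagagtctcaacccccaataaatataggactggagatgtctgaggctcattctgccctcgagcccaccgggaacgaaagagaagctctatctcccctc
The first capitals are a C/EBP match (TTGCNNAA) that begins 155 bases before the start, and the next an NF-kB match (GGG, any 3 bases, TTCC) that begins 73 bases before it. Read on both strands, these letters occur in 10.5% and 6.52% of 34943 RefSeq promoters of the same length. The other motifs searched were AP-1 (TGANTCA, 7.72% of promoters), CRE (TGACGTCA, 1.84%) and STAT (TTCNNNGAA, 7.66%). A match needed every stated letter, so a control element that departs from these letters is not marked. The matches printed here do not overlap each other, and a match describes letters, not a measured binding site.

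LIF encodes a cytokine that keeps mouse embryonic stem cells undifferentiated and also acts on bone (ENSG00000128342, chromosome 22, 30240447 to 30246851, minus strand). Its level was 52.9 and 53.4 CPM in control libraries and 47.5 and 45.6 CPM in anti-MN1 libraries. Both anti-MN1 libraries were lower, by a log2 fold change of -0.19 (SE 0.07, adjusted p = 0.0199). DESeq2 did not call the fall (adjusted p = 0.127), nor did edgeR with no filter on low counts (0.0534). The call was also lost without control replicate 1, control replicate 2 or anti-MN1 replicate 2, at adjusted p of 0.0818, 0.0898 and 0.161. LIF-AS1 and LIF-AS2 overlap 6.73% of its exonic bases on the other strand, and LIF-AS2 had 14 and 16 reads in the controls and 7 and 8 with the anti-MN1 sdAb.

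IL11 encodes a gp130 cytokine that acts on bone and blood-forming cells (ENSG00000095752, chromosome 19, 55364389 to 55370463, minus strand). Control libraries gave 5.21 and 3.99 CPM and anti-MN1 libraries 5.31 and 5.17 CPM. One anti-MN1 library lay inside the control range and the other just above it, and the log2 fold change of 0.19 did not pass (SE 0.22, adjusted p = 0.505, 95% interval -0.24 to 0.62). CLCF1, the cardiotrophin-like cytokine gene (ENSG00000175505, chromosome 11, 67364168 to 67374177, minus strand), stood at 9.43 and 11.2 CPM in control libraries and 13.5 and 10.1 CPM in anti-MN1 libraries. The groups overlapped, and the log2 fold change of 0.19 did not pass (SE 0.15, adjusted p = 0.296, 95% interval -0.096 to 0.48). Without anti-MN1 replicate 1 it was -0.022.

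The 4 receptor genes rose, by different amounts. IL6R encodes the chain that binds IL6 itself (ENSG00000160712, chromosome 1, 154405193 to 154469450, plus strand). It went from 7.51 and 6.89 CPM in the control libraries to 11.6 and 9.88 CPM in the anti-MN1 libraries. Both anti-MN1 libraries were above both controls, for a log2 fold change of 0.58 (SE 0.16, adjusted p = 0.00147). Without anti-MN1 replicate 1 the change was 0.47 and the call was lost (adjusted p = 0.0572). The membrane-bound and soluble forms of this receptor cannot be separated in counts per gene.

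IL6ST, the gene of gp130 (ENSG00000134352, chromosome 5, 55935095 to 55994993, minus strand), went from 341 and 343 CPM in control libraries to 461 and 459 CPM in anti-MN1 libraries. Libraries of a group lay close together, and both anti-MN1 libraries were far above both controls. The log2 fold change was 0.43 (SE 0.03, adjusted p = 1.88e-25). Of the 50-base windows of its longest transcript, 10.3% occur in other genes, namely the pseudogene IL6STP1 and ENSG00000262211, which had no count, and ENSG00000276855, a non-coding RNA gene with 95 and 76 reads in the controls and 81 and 72 with the anti-MN1 sdAb. ENSG00000262211 also overlaps 8.58% of the exonic bases of IL6ST on the other strand.

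OSMR encodes the chain used by oncostatin M and, with IL31RA, by IL31 (ENSG00000145623, chromosome 5, 38845858 to 38945596, plus strand). It went from 131 and 122 CPM in control libraries to 187 and 181 CPM in anti-MN1 libraries. Both anti-MN1 libraries were well above both controls, for a log2 fold change of 0.54 (SE 0.04, adjusted p = 1.11e-24). RICTOR, an mTOR complex gene whose exons overlap 3.19% of the OSMR exonic bases on the other strand, rose 1.32-fold from 132 ± 0.853 CPM, and its part in the OSMR count was not tested.

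LIFR encodes the chain for LIF and CLCF1 (ENSG00000113594, chromosome 5, 38474963 to 38608354, minus strand). Its level was 79.1 and 86.7 CPM in control libraries and 88.3 and 96.1 CPM in anti-MN1 libraries. The higher control lay just under the lower anti-MN1 library, and the log2 fold change was 0.15 (SE 0.06, adjusted p = 0.0172). This call was lost with upper-quartile factors (0.067, adjusted p = 0.342), with library totals alone (0.073, adjusted p = 0.297) and with DESeq2 (adjusted p = 0.162). It was also lost without control replicate 1 (0.093, adjusted p = 0.316) or anti-MN1 replicate 2 (0.099, adjusted p = 0.272).

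The promoters of the 3 receptor genes with the larger rises are shown to set them beside that of IL6, over the same span and with the same motifs in capitals.
IL6R (chr1:154405093-154405392, plus strand): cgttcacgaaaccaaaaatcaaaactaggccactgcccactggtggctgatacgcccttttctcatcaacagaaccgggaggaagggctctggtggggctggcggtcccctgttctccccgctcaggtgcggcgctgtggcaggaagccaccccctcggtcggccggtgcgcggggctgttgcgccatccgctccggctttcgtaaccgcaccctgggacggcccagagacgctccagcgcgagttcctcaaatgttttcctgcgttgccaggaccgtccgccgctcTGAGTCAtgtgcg
IL6ST (chr5:55994914-55995213, minus strand): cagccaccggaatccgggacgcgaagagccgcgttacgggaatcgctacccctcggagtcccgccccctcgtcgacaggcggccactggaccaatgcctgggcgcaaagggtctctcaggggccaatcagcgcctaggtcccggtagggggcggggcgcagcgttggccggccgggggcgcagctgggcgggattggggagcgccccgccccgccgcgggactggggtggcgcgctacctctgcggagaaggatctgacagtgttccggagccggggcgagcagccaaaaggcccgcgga
OSMR (chr5:38845762-38846061, plus strand): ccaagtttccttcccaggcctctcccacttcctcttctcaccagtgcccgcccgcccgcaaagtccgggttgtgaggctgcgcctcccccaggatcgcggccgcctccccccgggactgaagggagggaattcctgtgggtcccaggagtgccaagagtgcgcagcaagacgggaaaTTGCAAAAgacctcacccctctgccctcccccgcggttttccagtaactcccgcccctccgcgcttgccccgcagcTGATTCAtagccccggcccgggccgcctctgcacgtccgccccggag
The IL6R window holds 1 AP-1 match, which begins at base 38 after the start. The OSMR window holds a C/EBP match that begins 73 bases before the start and an AP-1 match that begins at base 4 after it. The IL6ST window holds none of the letters searched, which says nothing about the factors. Of the other members with a RefSeq promoter, IL11 holds an AP-1 match that begins 96 bases before the start. LIFR holds a STAT match that begins 165 bases before its start, and STAT3 and SOCS3 hold none. Start here means the RefSeq start. The SOCS3 window (chr17:78360876-78361175) lies wholly upstream of the gene coordinates given for SOCS3, so it does not describe the start annotated there. The IL6 and LIFR windows lie inside the coordinates given for those genes. A promoter was matched for 8 of the 10 members, not for LIF and CLCF1.

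STAT3 is the main transcription factor of the pathway (ENSG00000168610, chromosome 17, 42313324 to 42388568, minus strand). Both controls measured 176 CPM, and the anti-MN1 libraries 168 and 162 CPM. Both anti-MN1 libraries were lower, but the log2 fold change of -0.093 did not pass (SE 0.04, adjusted p = 0.0632). It passed with upper-quartile factors (-0.18, adjusted p = 0.000232), with library totals alone (-0.17, adjusted p = 0.000297) and with a filter of at least 1 CPM in 2 libraries (adjusted p = 0.036).

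SOCS3, the feedback inhibitor (ENSG00000184557, chromosome 17, 78356778 to 78360077, minus strand), measured 25.5 and 25.9 CPM in control libraries and 27.5 and 28.0 CPM in anti-MN1 libraries. Both anti-MN1 libraries were slightly higher, and the log2 fold change of 0.11 did not pass (SE 0.10, adjusted p = 0.365). Its 95% interval runs from -0.078 to 0.30.

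Divided by exonic length, the levels of the members in the controls ran in the order IL6ST, STAT3, OSMR, LIF, SOCS3, LIFR, CLCF1, IL11, IL6R and IL6. They ran from 36.8 ± 0.132 CPM per kilobase for IL6ST to 0.535 ± 0.0353 for IL6 (SD, n = 2). With the anti-MN1 sdAb, IL6 stood at 3.87 ± 0.620 CPM per kilobase, above IL11 at 1.96 ± 0.0373 and IL6R at 1.66 ± 0.186. OSMR, at 25.7 ± 0.562, stood above STAT3 at 18.7 ± 0.545, the reverse of their order in the controls. In neither group did the libraries of neighbouring genes in the order overlap. These lengths sum the exons of all annotated transcripts, so the order depends on the annotation.

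The remaining ligand and receptor genes of the family were mostly sparse, and those that passed were lower. Of 11 such genes, 8 were tested, 0 rose and 3 fell, against 23.7% and 21.6% of all tested genes. Their median log2 fold change was -0.45. DESeq2 called 1 of these ligand genes lower and 0 of these receptor genes. IL11RA, the receptor chain for IL11, fell from 5.58 and 4.57 CPM to 3.58 and 2.45 CPM (adjusted p = 0.00695), and CTF1, the cardiotrophin-1 gene, fell from 1.86 and 1.51 CPM to 0.576 and 0.904 CPM (adjusted p = 0.0268). For both genes the anti-MN1 libraries lay below the controls.

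DESeq2 called neither IL11RA nor CTF1 (adjusted p = 0.0941 and 0.155). Without control replicate 1 both were lost in edgeR, at -0.59 (adjusted p = 0.15) and -1.01 (adjusted p = 0.227). IL11RA was also lost without anti-MN1 replicate 2 (-0.49, adjusted p = 0.184), and CTF1 without control replicate 2 (adjusted p = 0.0685) and without anti-MN1 replicate 1 (adjusted p = 0.207). Among those that did not pass, EBI3, a subunit of IL27, was at a log2 fold change of -0.46, CNTFR, the ciliary neurotrophic factor receptor gene, at -0.43 and CNTF at 0.38. IL31RA and IL27RA encode receptors related to gp130. IL31RA averaged 30.7 ± 2.31 CPM in control libraries against 29.5 ± 0.567 CPM in anti-MN1 libraries, and IL27RA measured 23.7 and 29.7 CPM against 27.2 and 30.9 CPM, with neither passing. OSM, which encodes oncostatin M, had at most 3 reads in any library, IL27 at most 2, and IL31 none, which allows up to 0.174 to 0.194 CPM (3 counts per library, for counting error only).

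**Figure D2:**
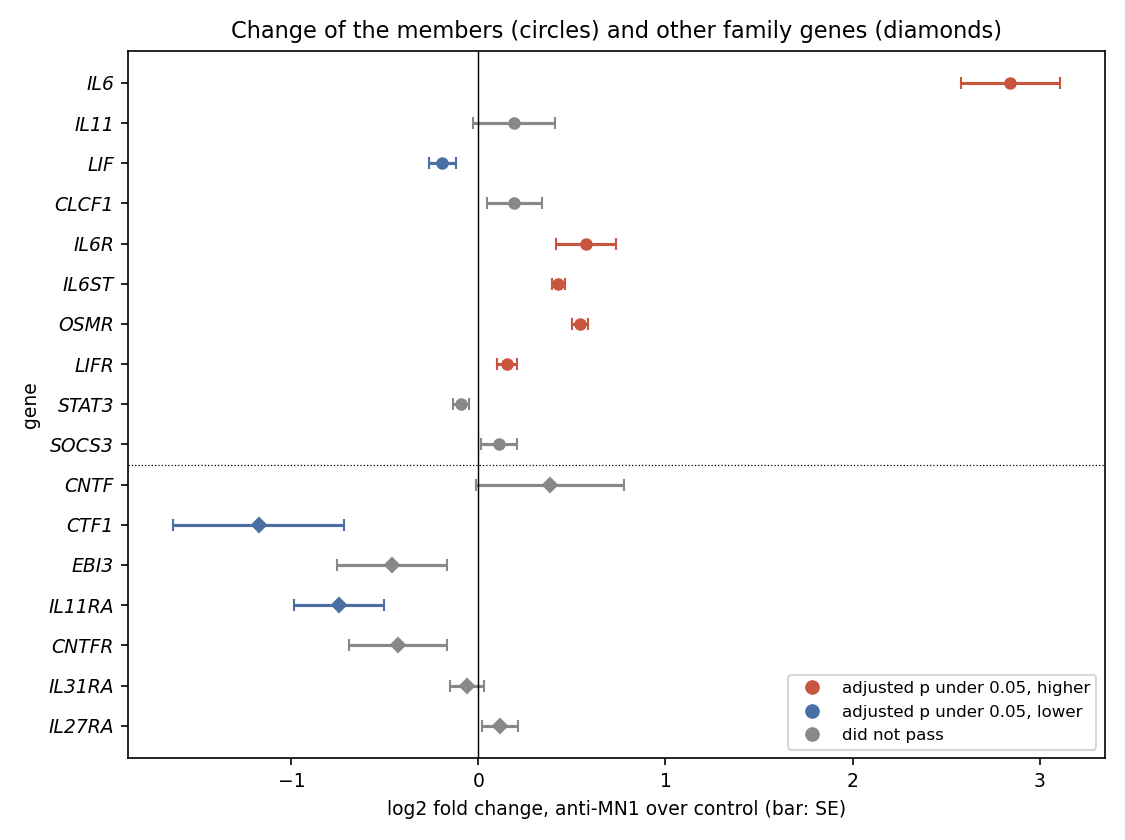
Log2 fold change (anti-MN1 over control) of the 10 members and of 7 other ligand and receptor genes of the family, with bars for the standard error. IL6 stands at 2.84, the member receptor genes lie between 0.15 and 0.58, and CTF1 and IL11RA lie at -1.18 and -0.75.

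The kinases and other transcription factors of the pathway showed small shifts. Of 9 tested JAK and other STAT genes, 5 rose and 0 fell, against 23.7% and 21.6% of all tested genes. Their median log2 fold change was 0.16. STAT5B and STAT6, which serve growth hormone and IL4 signals, rose 1.15-fold and 1.11-fold, and the kinase genes TYK2 and JAK1 rose 1.13-fold and 1.07-fold. STAT5A was at 0.23 on the log2 scale and did not pass. With upper-quartile factors or library totals alone, 1 of the 9 was still called, and DESeq2 called 2. STAT6 lost its call without anti-MN1 replicate 1 (0.092, adjusted p = 0.183) and STAT5B without anti-MN1 replicate 2 (0.15, adjusted p = 0.109). JAK1 kept its call in 3 of 14 alternatives and lost it without control replicate 1, anti-MN1 replicate 1 or anti-MN1 replicate 2 (adjusted p = 0.232, 0.112 and 0.109).

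The negative regulators went both ways. Of 15 tested genes, 2 rose and 1 fell, against 23.7% and 21.6% of all tested genes, with a median log2 fold change of -0.087. With upper-quartile factors or library totals alone 0 rose and 5 fell. SOCS7, a suppressor of cytokine signalling, fell from 71.2 and 73.6 CPM to 55.2 and 58.5 CPM, a log2 fold change of -0.35 (adjusted p = 7.71e-07). PTPN11, which encodes the phosphatase SHP2 that docks on gp130, rose 1.10-fold from 387 ± 3.67 CPM, and PIAS4, a SUMO ligase gene, rose 1.16-fold. PIAS4 was not called by DESeq2 (adjusted p = 0.191), nor without control replicate 1 (0.15, adjusted p = 0.315) or anti-MN1 replicate 1 (0.12, adjusted p = 0.4).

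SOCS1, which blocks JAK kinases, measured 0.807 and 1.27 CPM in control libraries and 0.384 and 0.452 CPM in anti-MN1 libraries and did not pass (adjusted p = 0.0538). PIAS3, an inhibitor of STAT3, and SOCS4 were at -0.16 and -0.087 on the log2 scale and did not pass. Upper-quartile factors called all 3 of these lower, with adjusted p of 0.0375 for SOCS1, 0.0031 for PIAS3 and 0.00284 for SOCS4.

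ADAM10 and ADAM17 encode proteases that release soluble IL6 receptor from the cell surface. ADAM10 fell from 272 and 258 CPM to 236 and 246 CPM (log2 fold change -0.14, adjusted p = 0.00133), a call lost without control replicate 1 (0.0926) and without anti-MN1 replicate 1 (0.0948). ADAM17 averaged 57.1 ± 3.81 CPM in control libraries against 59.5 ± 0.720 CPM in anti-MN1 libraries and did not pass.

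Of 14 tested STAT3 target genes, 7 rose and 2 fell, against 23.7% and 21.6% of all tested genes. Their median log2 fold change was 0.27. CEBPB, a leucine zipper factor of the acute phase response, rose from 32.8 and 40.2 CPM to 71.8 and 61.9 CPM, a log2 fold change of 0.87 (SE 0.08, adjusted p = 9.41e-19). MYC, a growth regulator, rose 1.51-fold from 285 ± 5.44 CPM, MCL1, which encodes a survival protein, 1.42-fold, the AP-1 gene JUNB 1.36-fold and CCND1, the cyclin D1 gene, 1.24-fold. PIM1, a kinase gene, went the other way, from 38.7 and 36.2 CPM to 22.4 and 23.4 CPM, a log2 fold change of -0.71 (SE 0.09, adjusted p = 7.38e-12). Many of these genes also answer to other pathways. Of the 4 too low to test, BATF and LBP had no count and SERPINA3 and HP at most 2 reads in any library.

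Of 10 regulators of IL6 transcription, 9 rose and 0 fell, against 23.7% and 21.6% of all tested genes. The median log2 fold change was 0.36, and REL, an NF-kB subunit gene, did not pass. This list does not hold activators alone. The NF-kB inhibitor gene NFKBIA rose 1.25-fold (adjusted p = 0.00016), and ATF3 rose 1.30-fold (adjusted p = 0.00087). The AP-1 genes FOSL1 and JUN rose 1.96-fold and 1.25-fold, to 70.9 ± 2.19 and 279 ± 3.54 CPM. The NF-kB subunit genes RELB, NFKB2 and NFKB1 rose 1.51-fold, 1.29-fold and 1.28-fold, and NFKBIZ, a nuclear cofactor needed for IL6 induction in mouse cells, rose 1.33-fold from 28.5 ± 0.809 CPM. RELB went from 12.3 and 10.2 CPM to 17.1 and 16.8 CPM. CEBPB, counted above with the STAT3 target genes, encodes a C/EBP factor and also rose. With only 2 groups, every gene that rose was on average higher where IL6 was higher. Whether these factors act on IL6 here was not tested.

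Genes whose products set the life of IL6 mRNA moved less uniformly, with a median log2 fold change of 0.14. Of 6 tested, 3 were higher and 0 lower, against 23.7% and 21.6% of all tested genes. ZC3H12A, which encodes the nuclease Regnase-1 that degrades IL6 mRNA, rose 1.46-fold from 15.6 ± 0.717 CPM, and ZFP36, the gene of the decay factor tristetraprolin, rose 1.43-fold from 10.7 ± 0.142 CPM. ELAVL1, an RNA-stabilising protein gene, rose 1.09-fold, a call lost in 6 of 14 alternatives, among them DESeq2 (adjusted p = 0.161), upper-quartile factors (0.044, adjusted p = 0.5) and the fits without control replicate 1, control replicate 2 or anti-MN1 replicate 1 (adjusted p = 0.0805, 0.0805 and 0.254). ARID5A, which stabilises IL6 mRNA, averaged 8.54 ± 1.02 CPM in control libraries against 6.75 ± 0.316 CPM in anti-MN1 libraries and did not pass (adjusted p = 0.0972), whereas upper-quartile factors called it lower (0.0328). The decay factor genes ZFP36L2 and ZFP36L1 were at 0.15 and 0.052 on the log2 scale and did not pass.

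Among ligands and receptors that act upstream of IL6, 3 of 7 tested genes rose and 1 fell, with a median log2 fold change of 0.67. The shares over all tested genes were 23.7% and 21.6%. IL1A, a cytokine gene whose product induces IL6, rose from 6.02 and 6.14 CPM to 12.7 and 12.9 CPM, a log2 fold change of 1.07 (SE 0.16, adjusted p = 1.99e-09). The receptor genes TLR3 and TLR4, sensors of double-stranded RNA and of bacterial lipopolysaccharide, rose 1.95-fold and 1.59-fold from 5.18 ± 0.128 and 15.0 ± 0.831 CPM. IL1B measured 0.745 and 0.347 CPM in control libraries and 1.28 and 1.23 CPM in anti-MN1 libraries and did not pass (adjusted p = 0.0503), but did with limma-voom and with 2 other settings. IL1RAP, a subunit of the IL1 receptor, fell by 0.22 on the log2 scale, a call lost in 6 of 14 alternatives, among them DESeq2 (adjusted p = 0.209) and the fits without control replicate 1, control replicate 2 or anti-MN1 replicate 1 (adjusted p = 0.0808, 0.263 and 0.333). IL1R1 was at 0.25 and did not pass, and TNF had at most 4 reads in any library.

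**Figure D3:**
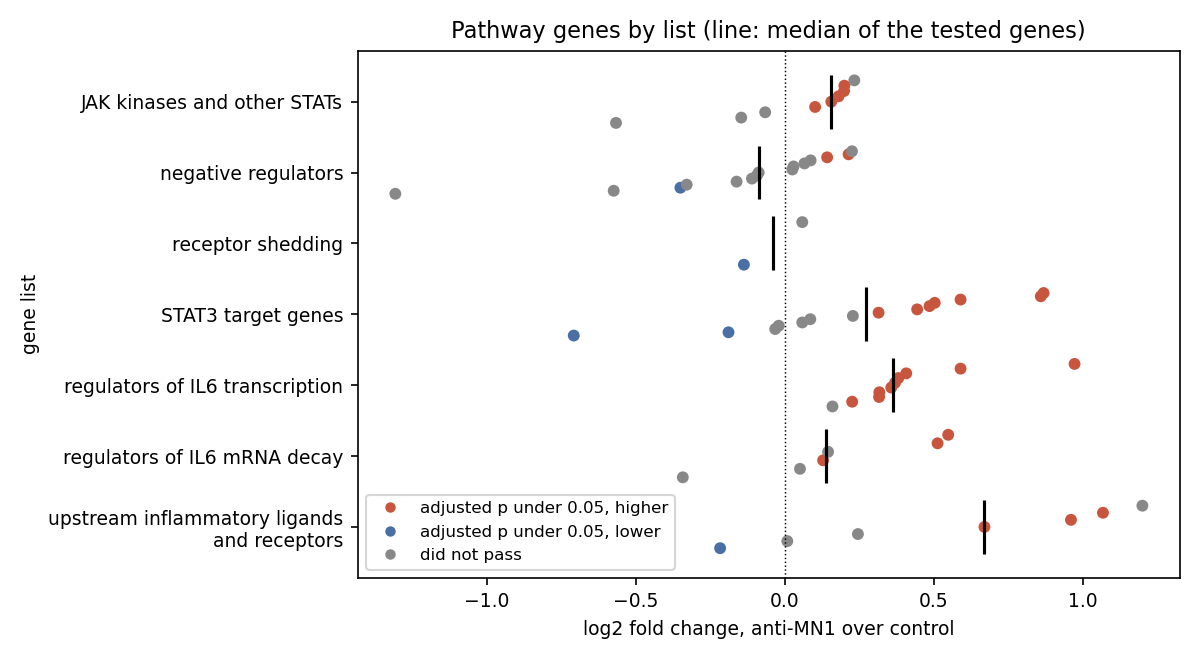
Log2 fold change (anti-MN1 over control) of the tested genes of the pathway lists, each point 1 gene, coloured by whether it passed at an adjusted p of 0.05, with a vertical line at the list's median. Of the regulators of IL6 transcription 9 of 10 passed upward, against 23.7% of all tested genes, while the negative regulators lie on both sides of 0.

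Markers of other cell types were measured beside these lists. The 6 epithelial markers summed to 36.4 and 40.7 CPM in the control libraries and to 55.1 and 59.1 CPM in the anti-MN1 libraries. Of these, CLDN4 and ESRP2 rose 1.60-fold and 1.52-fold, while CDH1, which encodes the adhesion protein E-cadherin, fell from 0.620 and 1.56 CPM to 0.320 and 0.388 CPM (log2 fold change -1.62, adjusted p = 0.0181). EPCAM measured 1.68 and 3.13 CPM in control libraries and 2.05 and 1.16 CPM in anti-MN1 libraries, a log2 fold change of -0.59 that did not pass. The CDH1 call was lost with DESeq2 (adjusted p = 0.151), with limma-voom (adjusted p = 0.0589) and without control replicate 2 (-0.80, adjusted p = 0.592), anti-MN1 replicate 1 (-1.48, adjusted p = 0.129) or anti-MN1 replicate 2 (-1.75, adjusted p = 0.0825). The 8 osteoblast markers summed to 795 and 783 CPM in control libraries and to 301 and 303 CPM in anti-MN1 libraries. Most of the control sum came from COL1A1 and SPARC, which averaged 493 and 257 CPM there. Of 5 tested, 3 were lower (COL1A1, SPARC and RUNX2). ALPL and SPP1 leaned the other way, at 0.70 and 0.15 on the log2 scale, and did not pass (adjusted p = 0.072 and 0.654). The 6 endothelial markers summed to 9.06 and 7.47 CPM and to 6.20 and 6.65 CPM. Of 3 tested, 2 were lower (VWF and TEK), neither of them in DESeq2, and PECAM1 was at 0.33 and did not pass. The part of these shifts in the changes of the IL6 family was not tested.

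Likeness to IL6 was measured as the Euclidean distance between log2 CPM values (0.05 CPM added) over the 4 libraries, each gene centred on its control mean, among 13193 protein-coding genes that averaged 1 CPM or more. The nearest was NT5E, an ecto-nucleotidase gene, at a distance of 0.146. It was followed by the interferon-induced genes IFIT2 at 0.200, ISG15 at 0.319, IFI27 at 0.401 and IFIT3 at 0.425. With 4 libraries in 2 groups, this likeness mostly says that the genes rose by a similar fold.

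**Figure D4:**
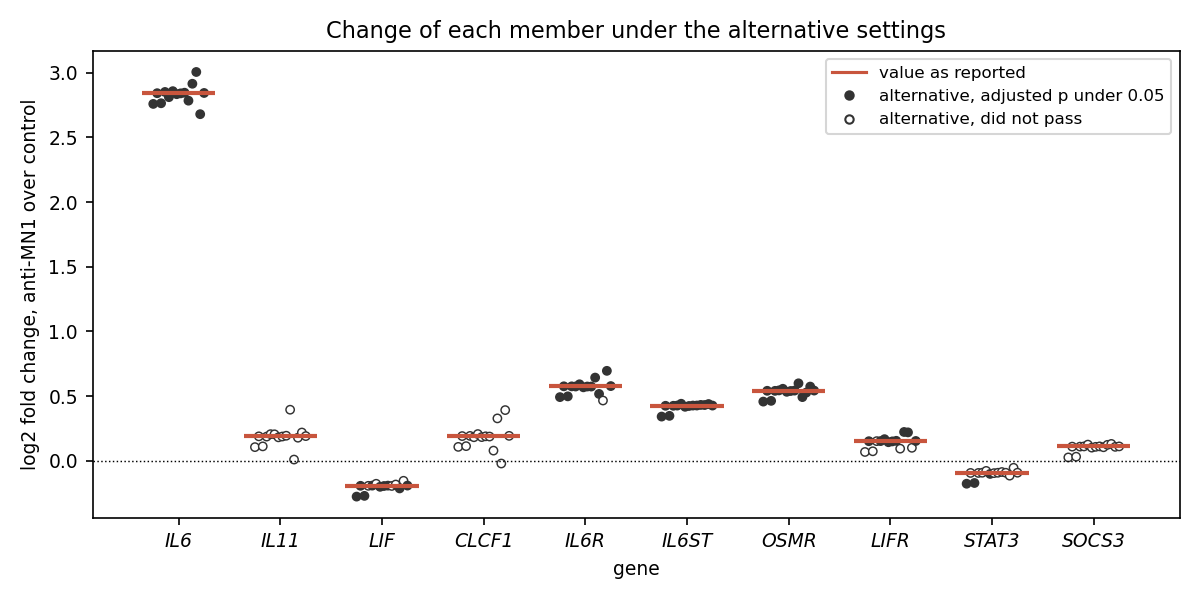
Log2 fold change (anti-MN1 over control) of each member as reported (red line) and under the 14 alternative settings (points, filled where the adjusted p was under 0.05). IL6, IL6ST and OSMR stayed called in all 14, IL6R in 13, and LIF and LIFR in 9 each.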

How the data were processed

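Transcripts were sequenced in 4 U2OS libraries, 2 per group. The authors deposited raw read counts per Ensembl gene, which are whole numbers and not normalized. Bowtie2, HTSeq and hg38 (GRCh38) are named per the submitters' processing notes, without versions, annotation or strand setting. Columns were matched to libraries by the group and number in the titles. Every identifier was found in GENCODE release 29, the source of coordinates and exonic lengths.

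In R 4.3.3, edgeR 4.0.16 kept 17524 genes by filterByExpr (minimum count 10), scaled by TMM (factors 0.971 to 1.03) and ran the 2-sided quasi-likelihood test with a robust prior and no covariate. The prior had a median of 209 degrees of freedom, against 2 libraries per group. Adjusted p-values (Benjamini-Hochberg) cover all tested genes. A standard error is the log2 fold change over the root of the F statistic, and 95% intervals are normal and unadjusted. The test was tried on simulated data in which few genes changed and replicates spread as fitted here. That trial cannot show how the test behaves where 45.3% of genes are called.

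The members and gene lists were chosen with earlier results of these data known. Named are all 10 members, up to 6 tested genes per list with the smallest p (the whole list where it has 4 or fewer) and the 5 genes most like IL6. Overlapping genes, genes with few reads, REL, NFKBIA, ATF3 and single markers were named after their values were seen. Some genes are counted in their lists and not reported here. Alternatives were other scalings and filters, DESeq2 1.42.0, limma-voom (limma 3.58.1), removal of the 20 most abundant genes, a replicate block and leaving out each library.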

Additional observations from a re-analysis of the deposited data

How the results depend on the processing

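IL6, IL6ST and OSMR kept their direction and call in all 14 alternatives, with log2 fold changes of 2.68 to 3.01, 0.34 to 0.44 and 0.46 to 0.60. IL6R lost its call in 1, LIF and LIFR in 5 each, STAT3 gained one in 3, and IL11, CLCF1 and SOCS3 were called in none. The count of members higher was 4 or 5 throughout. The count of 1 member lower became 2 with upper-quartile factors, library totals alone or at least 1 CPM in 2 libraries, 0 with DESeq2 or no filter beyond a count above 0, and 0 to 1 when a library was left out. The cause was not tested. Genes called numbered 7942, against 5309 with DESeq2 and 5991 to 6685 with a library left out. Upper-quartile factors moved the median of all genes to -0.089.

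Among genes that did not pass, signs turned with upper-quartile factors for ADAM17 (-0.026) and ZFP36L1 (-0.034), and with library totals for the same genes (-0.020 and -0.028). They also turned on leaving out a library, over ranges of -0.022 to 0.39 for CLCF1, -0.029 to 0.29 for IL27RA, -0.13 to 0.023 for IL31RA, -0.0024 to 0.13 for ADAM17, -0.012 to 0.30 for SPP1, -3.65 to 0.017 for CSF1R and -0.23 to 0.86 for ITGAM. Deviations of same-numbered libraries from their group means were not correlated (r = -0.0031 across genes). This value cannot tell whether same-numbered libraries shared a culture or a batch, which the labels do not state. With the replicate block 7879 genes were called, and 5 members higher and 1 lower. The alternatives for genes outside the 10 members, and the prior not robust to outlier genes (7726 called), were added after seeing the data. Depth limits IL6 in the controls (17 and 20 reads), IL11 and CTF1.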

Other observations

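Ratios of levels per exonic length within each library set ligands against receptor chains. IL6ST stood 31.6 and 34.6 times above IL6R in the controls and 27.6 and 32.2 times above it with the anti-MN1 sdAb, and these ranges overlap. The ratio of IL6 to IL6R was 0.438 and 0.524 in the controls and 1.91 and 2.81 with the anti-MN1 sdAb. LIF was 26.2 and 24.1 times as high as IL6 in the controls and 3.48 and 2.67 times as high with the anti-MN1 sdAb. OSMR over LIFR was 2.74 and 2.33 in the controls and 3.50 and 3.12 with the anti-MN1 sdAb, without overlap. An exact 2-sided permutation test of 2 libraries against 2 cannot go below p = 0.333, so these ratios are values with no test.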
